A study of Mus musculus with 8 samples.

Results

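Scd1, Scd2 and Acoxl are 3 lipid enzyme genes of the mouse, out of 18336 genes named by the array annotation of the series. They were represented by 6 probe sets on the E18.5 arrays and 5 on the E11.5 arrays, where Acoxl had no probe set named. The group was chosen by the size of the measured fall of Scd1 and Acoxl in the E18.5 comparison below, and Scd2 joined it as the close relative of Scd1. Values of all 3 genes in that comparison are therefore given as a description, without a test.

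The series hybridised RNA from 8 FVB/N mouse tissue samples to Affymetrix arrays of 1 colour. Of these, 3 lung samples came from double transgenic embryos that overexpressed MIA (MIA bitransgenic) and 3 from single transgenic control embryos, late in gestation at embryonic day E18.5. The labels name the construct SP-C/MIA, and SP-C is surfactant protein C, whose promoter is widely used to drive transgenes in the distal lung epithelium. They do not say which transgene the controls carried, and nothing in them says that each array held 1 embryo, so p-values measure the spread between these samples. Early lung and trachea, at E11.5, had 1 array each with no transgene named and were measured on an older array type. The number of arrays limits the precision.

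Stearoyl-CoA desaturases insert a double bond into saturated fatty acyl-CoA in the endoplasmic reticulum and make oleate and palmitoleate for phospholipids, triglycerides and cholesterol esters. Mice carry a cluster of such genes, of which Scd1 is best known from liver, adipose tissue and skin glands, and Scd2 from brain and from the embryo and newborn. Acoxl is named for its likeness to the peroxisomal acyl-CoA oxidases, which catalyse the first step of peroxisomal beta-oxidation. Surfactant, which alveolar type II cells secrete late in gestation, is made mostly of phospholipid.

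The E18.5 arrays matched their labels at the transgene. Mia, the gene overexpressed, had a signal of 38537 ± 6207 (SD, n = 3) in bitransgenic lungs and 959 ± 194 (SD, n = 3) in controls. Signals are the linear MAS5 values of the deposited table, and each array had a trimmed mean of 1500. The 3' to 5' signal ratio of Actb, a sign of RNA quality, was 1.65, 1.51 and 1.61 in the bitransgenic arrays and 1.501, 1.47 and 1.28 in the control arrays, so it moved with the group. Bitransgenic 3 and control 3 stood somewhat apart, with mean correlations to the remaining E18.5 arrays of 0.967 and 0.966, where the others had 0.973 to 0.975. For log2 values a pseudocount of 86.4, the table's 20th percentile, was added to each signal, and log2 changes are bitransgenic minus control. Over all 12625 genes tested the median log2 change was 0.01, with 95% of genes between -0.58 and 0.50.

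Scd1 signals were lower in every bitransgenic lung than in every control by both of its probe sets. The brighter probe set, 1415964_at, read 977, 923 and 1741 in bitransgenic lungs, against 41930.0, 36466 and 36858 in controls. The lowest control lay 20.9-fold above the highest bitransgenic lung. Means were 1214 ± 458 (SD, n = 3) in bitransgenic lungs and 38418 ± 3048 (SD, n = 3) in controls, so that 3.16% of the control signal remained. The second probe set, 1415965_at, read 270, 138 and 250 in bitransgenic lungs, against 2795, 2804 and 2186 in controls, and 8.45% of the control mean remained. Log2 changes were -4.94 by the first and -3.15 by the second, with a spread within groups (pooled SD) of 0.34 and 0.29.

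Among all genes, the brighter Scd1 probe set ranked between 6827 and 8999 by signal in the bitransgenic lungs and between 114 and 149 in the controls, where rank 1 is the brightest of 18193. In both groups Scd1 thus stayed above the pseudocount. At this pseudocount its log2 change was the lowest of the 12625 genes, while without one Acoxl, at -5.81, lay below Scd1, at -5.04. This place describes the choice of the genes and adds nothing to it.

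Scd2 signals were also lower in the bitransgenic lungs, by a smaller ratio and by all 3 of its probe sets. The brightest, 1415822_at, read 49191, 58547 and 48773 in bitransgenic lungs, against 76651, 68927 and 75110 in controls. The groups did not overlap, but the lowest control was only 1.18 times the highest bitransgenic lung. The second, 1415823_at, read 3784, 4362 and 3690.1 in bitransgenic lungs, against 7060.3, 7842 and 9479 in controls. The third, 1415824_at, read 1229.9, 1451 and 1413 in bitransgenic lungs, against 2818, 2819 and 2270.1 in controls.

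The log2 changes of these Scd2 probe sets were -0.50, -1.02 and -0.90, with pooled SDs of 0.12, 0.18 and 0.15. The brightest probe set, which stands for the gene in the fit across genes, thus gave the smallest change, with 70.9% of the control mean left against 48.5% and 51.8% by the others. It lay at percentile 99.7 to 99.8 of the bitransgenic arrays and at percentile 99.9 of every control array. Whether probes of Scd1 and Scd2, which are close paralogs, also read each other's transcripts was not tested.

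Acoxl had a single probe set, 1460470_at, whose signal was near background in bitransgenic lungs and well above it in controls. It read 18.7, 30.1 and 131 in bitransgenic lungs, against 2590, 3199 and 1588 in controls. Of the bitransgenic values 2 lay below the pseudocount of 86.4 and 1 above it, and the groups were far apart. Means were 60.1 ± 62.0 (SD, n = 3) in bitransgenic lungs and 2459 ± 813 (SD, n = 3) in controls. The log2 change of -4.14 depended on the pseudocount and was -5.81 without one and -2.76 with one 4 times as large. Bitransgenic lungs placed the probe set at percentile 7.02 to 23.4 of the array, and controls placed it at percentile 73.5 to 85.0.

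In all, the groups did not overlap for any of the 6 probe sets, all lower in bitransgenic lungs, where 7.3% of all 27022 probe sets past the filter on low signals did the same. The 3 genes all passed that filter, which keeps mean log2 values at or above the 40th percentile, and Acoxl passed it through its control signal. Among genes, 7.56% were lower without overlap and 8.86% were higher. Adjusted for the Actb ratio, the log2 changes were -5.11 for Scd1, -0.40 for Scd2 and -4.68 for Acoxl, and without control 3 and bitransgenic 3 they were -5.24, -0.44 and -4.74. Bitransgenic 3 had the highest reading within its group for Acoxl and for the brighter Scd1 probe set, and control 3 had the lowest reading of its group for Acoxl, for 1415965_at and for 1415824_at.

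**Figure D1:**
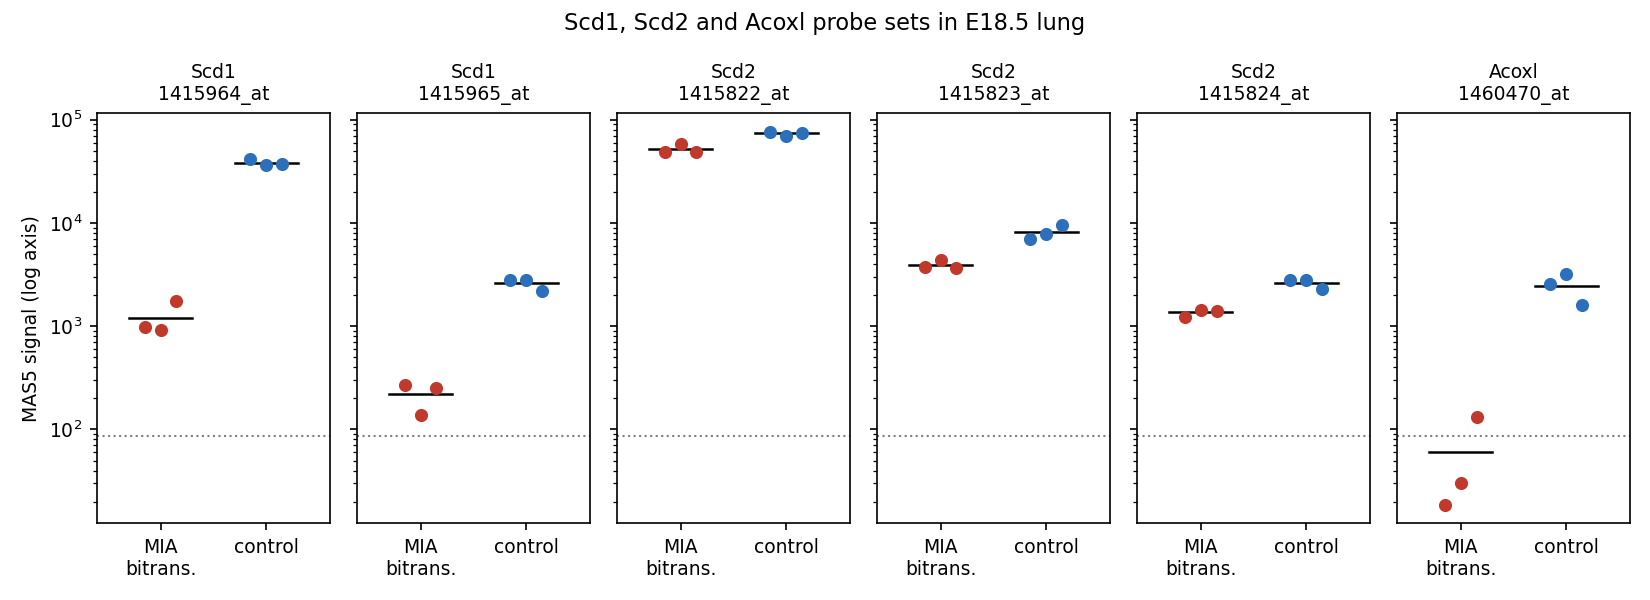
MAS5 signal on a log axis for each probe set of Scd1, Scd2 and Acoxl in the 3 MIA bitransgenic (red) and 3 control (blue) E18.5 lungs. Points are arrays, black bars are group means and the dotted line is the pseudocount of 86.4; all bitransgenic points lie below all control points in each panel, with the widest gap for Scd1 1415964_at, where the lowest control is 20.9-fold above the highest bitransgenic lung.

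The 1 promoter window listed for Acoxl is shown because its gene was read near background in the bitransgenic lungs. RefSeq gives it on GRCm38.p6 at chr2:127854378-127854677, plus strand, from 250 bases before a transcript start to 50 bases after it. That start lies 15831 bases inside the annotated gene, so the window is not at the gene's first base. Scd1 and Scd2 had no entry in that table. Capitals mark matches to 2 motifs searched on both strands, CCAAT, the CCAAT box bound by NF-Y, and TTGCNNAA, a core shared by sites of C/EBP factors.

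Acoxl: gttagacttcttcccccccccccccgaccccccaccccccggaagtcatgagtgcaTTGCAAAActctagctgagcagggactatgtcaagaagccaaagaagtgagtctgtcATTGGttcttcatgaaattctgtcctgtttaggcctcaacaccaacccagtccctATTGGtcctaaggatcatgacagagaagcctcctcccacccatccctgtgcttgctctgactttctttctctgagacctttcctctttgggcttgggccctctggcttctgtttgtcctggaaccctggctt

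The CCAAT box matched in reverse orientation at positions -137 and -82, counting that transcript start as 0, and TTGCNNAA matched forward at -194. The matches do not overlap. Of all 32851 promoter windows of the same length, 37.4% held at least 1 CCAAT box, 11.7% held 2 or more, and 10.8% held TTGCNNAA. TCACNCCAC, a form of the sterol response element, had no match in these letters and occurred in 1.24% of windows, and a PPAR element, 2 copies of AGGTCA spaced by 1 base, had none and occurred in 0.0396%. The motifs were picked with the sequence in view, and a match describes the letters only.

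The other genes of the pathways around these enzymes had log2 changes between -1.19 and 0.82. Of 152 genes listed, 141 were on the E18.5 array and 128 passed the filter, of which 1 fell and none rose by limma across all genes. The fit called 0.436% of all 12625 genes lower and 0.238% higher, at an adjusted p under 0.05, so the count of calls in these lists was near the background. At an unadjusted p under 0.05, 14 of the 128 were lower and 6 higher, where 5.16% of all genes were lower and 4.53% higher. Without overlap between the groups, 19 of the 128 were lower and 11 higher, where 7.56% of all genes were lower and 8.86% higher. Both lower counts lay above these shares and both higher counts lay near them. The median log2 change over the 128 genes was -0.02, against 0.01 over all genes.

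The gene that fell was Lpcat1, which encodes an acyltransferase that remodels phosphatidylcholine in type II cells. Its signal was 21869 ± 1802 (SD, n = 3) in bitransgenic lungs and 49801 ± 2825 (SD, n = 3) in controls, a log2 change of -1.19 with an SE of 0.11 (limma adjusted p = 0.000992). The adjusted p lay between 0.000927 and 0.0139 in the fits that left out 1 array. Lpcat1 was the single call among 22 tested genes of the list drawn up as users of monounsaturated acyl chains, whose median was -0.06. Whether the products of these genes take such chains in these lungs was not tested. Without control 3 the lists held 3 calls, all lower, where 51 of all 12625 genes were called lower and 46 higher. These calls were Lpcat1, the glycerol-3-phosphate acyltransferase gene Gpam and Insig1, which holds SREBP precursors in the endoplasmic reticulum. Without control 3 and bitransgenic 3 there were 6 lower, namely these and Acsl4, Cebpa and Fasn, and 1 higher, Agpat4. In that fit 116 of all 12625 genes were called lower and 71 higher.

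None of 15 other desaturase and elongase genes tested passed in limma, and their median was -0.06. At an unadjusted p under 0.05, 1 was lower and 1 higher, where 5.16% of all genes were lower and 4.53% higher. Hacd3, a dehydratase of fatty acid elongation, had a log2 change of 0.50 (SE 0.15, limma adjusted p = 0.273). Fads1, a desaturase of polyunsaturated chains, had -0.49 (SE 0.18, limma adjusted p = 0.388), and the very long chain elongase gene Elovl1 had -0.32 (SE 0.15, limma adjusted p = 0.539). Elovl6, whose product elongates palmitoyl-CoA to the stearoyl-CoA that Scd enzymes desaturate, averaged 1110.2 ± 255 (SD, n = 3) in bitransgenic lungs and 1155 ± 211 (SD, n = 3) in controls. Scd3, the desaturase gene next to Scd2, was near background in both groups, with 155 ± 122 (SD, n = 3) in bitransgenic lungs and 132 ± 92.5 (SD, n = 3) in controls. It did not pass the filter.

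Cytochrome b5 and its reductases pass electrons to the desaturases. None of 5 tested genes passed in limma, and none had an unadjusted p under 0.05. Cyb5a, Cyb5b and Cyb5r4 had log2 changes of 0.20, -0.10 and 0.10. Cyb5r2 did not pass the filter, with low signals of 71.3 ± 51.8 (SD, n = 3) in bitransgenic lungs and 223 ± 67.9 (SD, n = 3) in controls.

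Genes of fatty acid synthesis, which supply the substrate, had the lowest median of the pathway lists, -0.35 over 12 tested genes. None passed in limma, with 5 lower and none higher at an unadjusted p under 0.05, and 7 of the 12 were lower in all bitransgenic lungs than in all controls, against 7.56% of all genes for the second count and 5.16% for the first. Acaca, the acetyl-CoA carboxylase gene, averaged 1766 ± 175 (SD, n = 3) in bitransgenic lungs and 2762 ± 113 (SD, n = 3) in controls, a log2 change of -0.62 (SE 0.13, limma adjusted p = 0.092). Fasn, the fatty acid synthase gene, had -0.53 (SE 0.12, limma adjusted p = 0.102). Mid1ip1, whose product activates acetyl-CoA carboxylase, had -0.53 (SE 0.12, limma adjusted p = 0.112). Adjusted for the Actb ratio, the median of the list was -0.24.

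Regulators of desaturase transcription had changes in both directions. None of 23 tested genes passed in limma, and the median was -0.03. At an unadjusted p under 0.05, 5 were lower and 2 higher, where 5.16% of all genes were lower and 4.53% higher. Cebpa, a transcription factor gene of lipid-storing cells and of type II cells, averaged 2662 ± 671 (SD, n = 3) in bitransgenic lungs and 4912 ± 1089 (SD, n = 3) in controls, a log2 change of -0.87 (SE 0.21, limma adjusted p = 0.143). Srebf2, which encodes SREBP-2, had -0.44 (SE 0.13, limma adjusted p = 0.263). Mlxipl, which encodes the glucose-responsive factor ChREBP, had 0.82 (SE 0.26, limma adjusted p = 0.300). Srebf1, which encodes the SREBP-1 factors that activate Scd1 in liver, averaged 7486 ± 200.2 (SD, n = 3) in bitransgenic lungs and 9334 ± 655 (SD, n = 3) in controls.

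**Figure D2:**
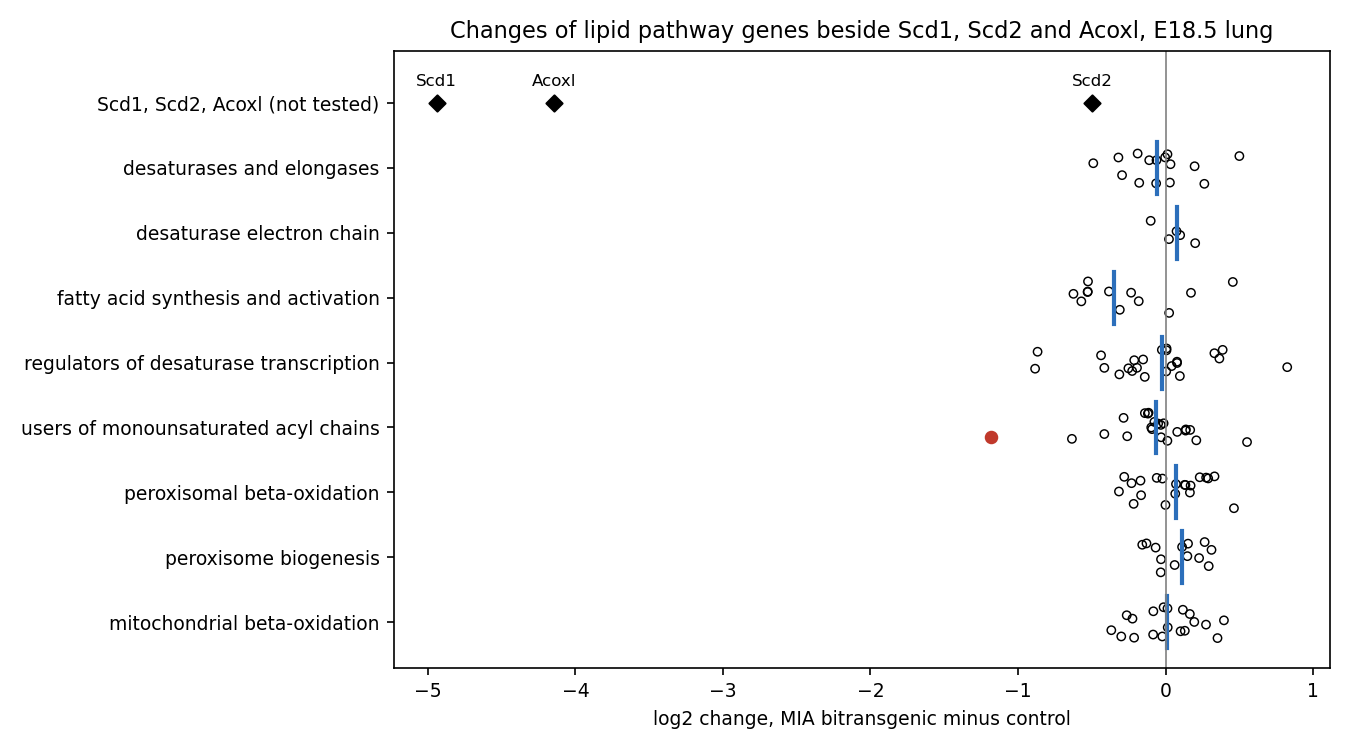
Log2 change, MIA bitransgenic minus control, of each tested gene (circles) in 8 lipid pathway lists, with the list median as a blue bar and Scd1, Scd2 and Acoxl as diamonds in the top row. The filled red circle is Lpcat1, the 1 gene of these lists past the threshold, at -1.19; the open circles lie between -0.88 and 0.82.

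Around Acoxl, none of 20 tested genes of peroxisomal beta-oxidation passed in limma, and the median was 0.07. At an unadjusted p under 0.05, none was lower and 1 higher, where 5.16% of all genes were lower and 4.53% higher. Acox2, an acyl-CoA oxidase of branched chains, averaged 692 ± 169 (SD, n = 3) in bitransgenic lungs and 523 ± 27.7 (SD, n = 3) in controls. Acox3, another of the oxidases, had low signals of 222 ± 23.1 (SD, n = 3) in bitransgenic lungs and 278 ± 41.7 (SD, n = 3) in controls and did not pass the filter. Abcd4, listed here with the transporters of its family, had a log2 change of 0.46, the phytanoyl-CoA hydroxylase gene Phyh had -0.28, and Abcd3, a transporter of the peroxisomal membrane, had 0.23.

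Genes that build peroxisomes or oxidise fatty acids in mitochondria had no calls. Among 13 peroxisome biogenesis genes none passed in limma and none had an unadjusted p under 0.05. Their median was 0.11, and Pex26, Pex7 and Pex2 had log2 changes of 0.31, 0.29 and 0.27. Among 19 genes of mitochondrial beta-oxidation none passed in limma. At an unadjusted p under 0.05, 1 was lower and 1 higher, where 5.16% of all genes were lower and 4.53% higher. The median of the 19 was 0.01, and the enzyme genes Eci1, Echs1 and Hadh had log2 changes of 0.40, -0.37 and 0.27.

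No gene next to Scd1, Scd2 and Acoxl on their chromosomes was called. Scd1 and Scd2 lie near each other on chromosome 19 and Acoxl lies on chromosome 2, in the gene order of GRCm38.p6. Of the 12 nearest genes with a probe set, up to 3 on each side of each gene, 9 were tested and none passed in limma or had an unadjusted p under 0.05. Their log2 changes ran from -0.27 to 0.18. Ndufb8 and Hif1an, beyond Scd1, had 0.10 and -0.11, and Bloc1s2, on the far side of Scd2, had 0.01. Bub1, a mitotic checkpoint gene before Acoxl, had -0.27. Bcl2l11, which encodes the cell death protein BIM, overlaps the annotated end of Acoxl and averaged 19647 ± 515 (SD, n = 3) in bitransgenic lungs and 17546 ± 2908 (SD, n = 3) in controls, a log2 change of 0.18. Mall, Mtln, Morrbid and Anapc1 had log2 changes of 0.05, -0.17, -0.15 and -0.03, and Scd3, Pkd2l1 and Wnt8b were below the filter.

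**Figure D3:**
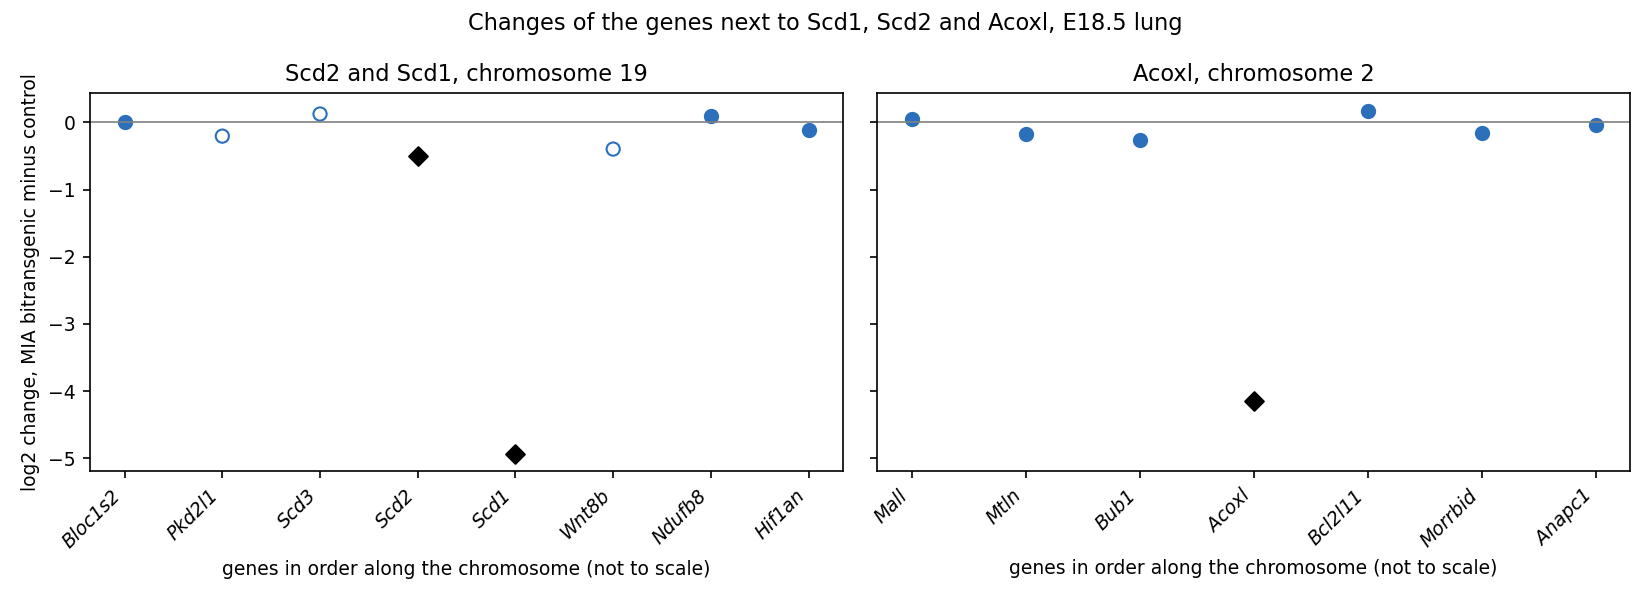
Log2 change, MIA bitransgenic minus control, of genes in their order along the chromosome around Scd2 and Scd1 (left) and Acoxl (right), with distances not to scale. Diamonds are Scd1, Scd2 and Acoxl, filled circles are tested neighbours and open circles are neighbours below the filter; the tested neighbours lie between -0.27 and 0.18.

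The genes with profiles nearest to Scd1 and Acoxl were the same set. Likeness was measured as the root mean square distance between log2 values over the 6 E18.5 arrays, at the pseudocount of 86.4. Each gene was centred on its own mean, and the distance rests mainly on the group difference. Only 3 of all 12625 genes were lower by over 16-fold, so a shared set follows largely from the size of the falls. Sftpa1, which encodes surfactant protein A, was nearest to both, at a distance of 0.39 from Scd1 and 0.44 from Acoxl. Scd1 and Acoxl were second nearest to each other, at 0.50. The complement gene Hc lay at 0.87 from Scd1 and 0.59 from Acoxl, the water channel gene Aqp5 at 0.85 and 0.76, and the paraoxonase gene Pon1 at 1.11 and 0.77. Only 2 genes lay within 0.5 of Scd1 and 2 within 0.5 of Acoxl.

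Sftpa1 read 1437, 2170.2 and 1929 in bitransgenic lungs, against 41356, 42577 and 40871 in controls. The groups were far apart, with a narrow spread among controls. Aqp5 averaged 290.4 ± 70.4 (SD, n = 3) in bitransgenic lungs and 4797 ± 1714 (SD, n = 3) in controls.

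Scd2 had other neighbours, in a crowded part of the distribution where 1962 genes lay within 0.25. Nearest were Lonp2, which encodes a peroxisomal protease, at 0.05, Srebf2 at 0.06, the fatty acid transport protein gene Slc27a3 and Acaca at 0.07, and the phosphatase gene Ptpn4 at 0.08. Bitransgenic 2 was the highest of its group for Scd2 and for each of these 5 genes. Their choice by nearness to the Scd2 profile largely set this shared order. Lonp2 read 1521, 1776 and 1451 in bitransgenic lungs, against 2399, 1946 and 2314 in controls.

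**Figure D4:**
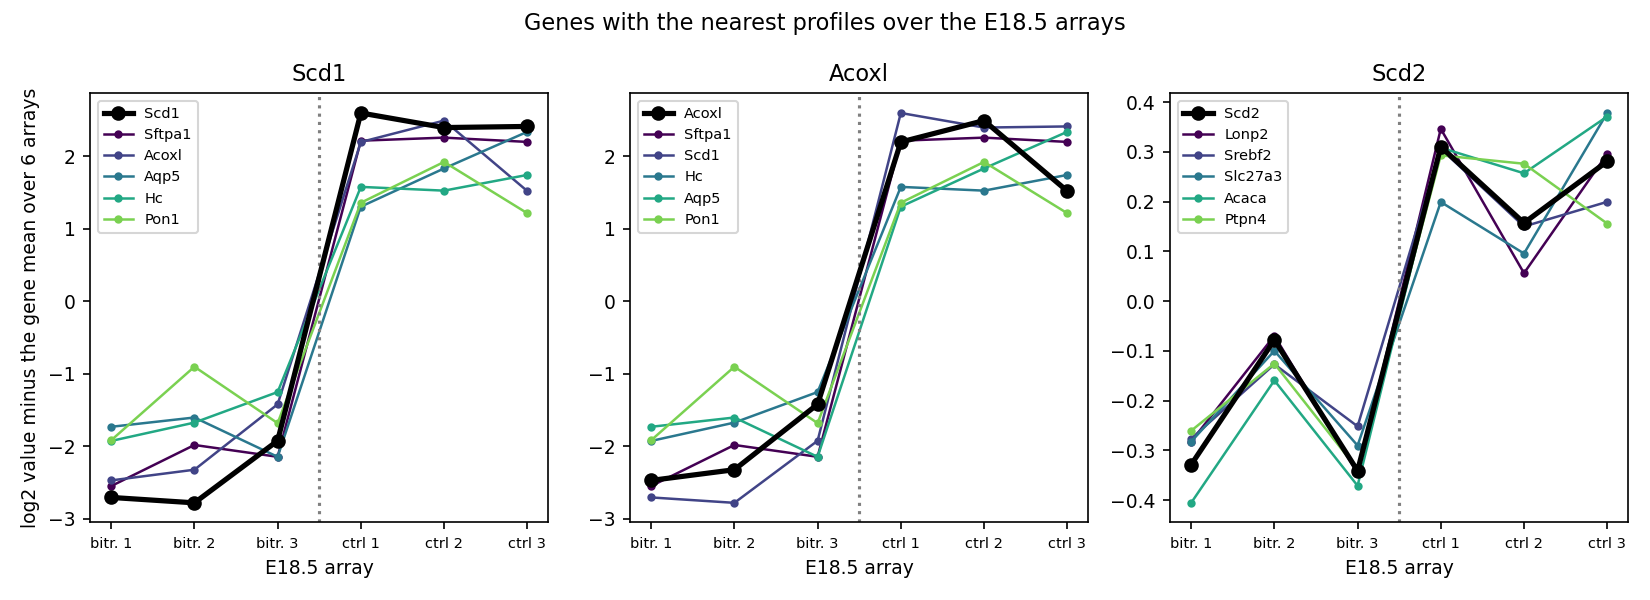
Log2 values of Scd1, Acoxl and Scd2 (black) and of the 5 genes with the nearest profiles to each (colours) over the 6 E18.5 arrays, after centring each gene on its mean, with MIA bitransgenic arrays left of the dotted line and controls right of it. Scd1 and Acoxl share Sftpa1, Hc, Aqp5 and Pon1; the Scd2 panel has a narrower axis and a set of neighbours with Lonp2, Srebf2, Slc27a3, Acaca and Ptpn4.

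Markers of the cells that could carry these genes moved in part with them. In bulk lung, fewer cells of a type and less RNA per cell cannot be told apart. Of 15 tested alveolar type II markers, 6 fell and none rose by limma, with a median log2 change of -0.97, against 0.436% of all genes called lower. Those that fell were the surfactant gene Sftpa1 (-4.45), the phosphate transporter gene Slc34a2 (-1.68), the lysozyme gene Lyz2 (-1.28), Lpcat1, the chemokine gene Cxcl15 (-1.01) and the lipid transporter gene Abca3 (-0.97). The summed signal of the list ran from 232010 to 292131 in bitransgenic lungs and from 444447 to 519502 in controls, and none was below the pseudocount throughout a group. Adjusted for the Actb ratio, the median was -0.57 and 2 calls were left, Sftpa1 and Lpcat1, where 0.127% of all genes were lower. The same 2 were left without control 2, where 16 of all 12625 genes were called lower. Without control 3 and bitransgenic 3 there were 9 calls, where 116 of all genes were called lower. Sftpc averaged 85319 ± 11417 (SD, n = 3) in bitransgenic lungs and 84710 ± 3667 (SD, n = 3) in controls. At an unadjusted p under 0.05, 11 of the 15 were lower and none higher, where 5.16% of all genes were lower. Sftpb, Napsa and Sftpd were not called, at log2 changes of -1.99, -1.02 and -0.76 (limma adjusted p = 0.0692, 0.0558 and 0.051). The type II genes Etv5 and Muc1 and the lineage factor gene Nkx2-1 were not called either, at log2 changes of 0.08, 0.10 and 0.12 (limma adjusted p = 0.934, 0.918 and 0.896).

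Of 11 alveolar type I markers 4 fell and none rose, with a median of -0.52, where 0.436% of all genes were lower. These were Aqp5 (-3.65), Rtkn2 (-1.47), Clic5 (-1.43) and the sodium channel gene Scnn1g (-1.19). Adjusted for the Actb ratio, the median was -0.40 and Aqp5 alone was called, where 0.127% of all genes were lower. Aqp5 was also the 1 call without bitransgenic 1, bitransgenic 3, control 2 or control 3. In those fits 28, 26, 16 and 51 of all 12625 genes were called lower. The fit without control 1 called Aqp5 with Scnn1g, where 47 of all genes were called lower. The fit without bitransgenic 2 called Aqp5, Rtkn2 and Clic5, where 43 of all genes were called lower. At an unadjusted p under 0.05, 9 of the 11 were lower and none higher with all arrays, where 5.16% of all genes were lower. The sum of the list ran from 226922 to 257480 in bitransgenic lungs and from 307345 to 328646 in controls. Pan-epithelial markers had a median of 0.30, with none of 12 called by limma. At an unadjusted p under 0.05, 1 was lower and 3 higher, where 5.16% of all genes were lower and 4.53% higher. Their sums were 103999 to 114175 in bitransgenic lungs and 94831 to 106940.0 in controls. In the club cell list 1 of 5 genes, Aldh1a7, rose (log2 change 0.77, limma adjusted p = 0.00904) and none fell, where 0.238% of all genes were higher, with sums of 119070.0 to 142070.0 in bitransgenic lungs and 120722 to 161576 in controls. Aldh1a7 was not called when adjusted for the Actb ratio (limma adjusted p = 0.119), where 0.0317% of all genes were higher, nor without any 1 of the bitransgenic arrays or without control 2. The part of these cell types in the lower signals of Scd1, Scd2 and Acoxl was not tested.

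Fat cells and liver cells are rich in Scd1 elsewhere in the body, and most of their markers were below the filter. Of 12 adipocyte markers 10 were on the array and 3 passed the filter, and their sum was 3516 to 4068 in bitransgenic lungs and 2637 to 3942 in controls. The highest term of that sum was Fabp4, a fatty acid binding protein gene, with 2288 ± 98.8 (SD, n = 3) in bitransgenic lungs and 1589 ± 167 (SD, n = 3) in controls, a log2 change of 0.51 (limma adjusted p = 0.207). The lipase gene Lipe averaged 417 ± 15.8 (SD, n = 3) in bitransgenic lungs and 661 ± 265 (SD, n = 3) in controls. The fat hormone gene Adipoq averaged 76.5 ± 75.0 (SD, n = 3) in bitransgenic lungs and 33.1 ± 23.4 (SD, n = 3) in controls, and Ucp1, of brown fat, averaged 34.5 ± 24.4 (SD, n = 3) in bitransgenic lungs and 23.2 ± 7.03 (SD, n = 3) in controls. Of 10 hepatocyte markers 8 were on the array and 1 passed the filter, with sums of 581 to 1021 in bitransgenic lungs and 699 to 2572 in controls. That gene, Alb, averaged 304 ± 147 (SD, n = 3) in bitransgenic lungs and 743 ± 663 (SD, n = 3) in controls, with 1506 in control 3. Lipofibroblasts, lipid-storing cells of the lung mesenchyme, had 8 tested markers with none called by limma and none at an unadjusted p under 0.05. Their sums were 113317 to 116473 in bitransgenic lungs and 121876 to 123010.0 in controls.

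None of 7 macrophage markers was called by limma or had an unadjusted p under 0.05, with sums of 32853 to 36726 in bitransgenic lungs and 28597 to 38183 in controls. None of 8 endothelial markers was called by limma. At an unadjusted p under 0.05, 6 were lower and none higher, where 5.16% of all genes were lower. All 8 had negative log2 changes, with a median of -0.49, or -0.24 when adjusted for the Actb ratio, and their sums were 50732 to 58327 in bitransgenic lungs and 68787 to 95001 in controls.

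At E11.5 the desaturases differed little between lung and trachea. Scd2 was read by 2 probe sets as 26264 and 12198 in lung, against 24882 and 10742 in trachea, and by both it lay at or above percentile 96.6 of its array. Its log2 ratio, lung over trachea with a pseudocount of 84.3, was 0.08 by the brighter probe set and 0.18 by the other. With 1 array per tissue there is no spread to set these ratios against and no test.

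The 3 probe sets of Scd1 did not share a direction. They read 836, 613 and 173 in lung, against 571, 569 and 329 in trachea, which gave log2 ratios of 0.49, 0.10 and -0.68. The third is of the _r_at kind, built by the maker under relaxed design rules, and the dimmer Scd2 probe set, 162077_f_at, is of the _f_at kind, made for a family of like sequences. The mean over the 3 was -0.032, so these arrays give Scd1 no direction between the tissues. Of 5114 genes compared, 1.17% were over 2-fold higher in lung and 2.25% over 2-fold higher in trachea, and neither desaturase was among them.

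Among the pathway genes at E11.5, 73 were compared and 3 were over 2-fold apart. Lung gave the larger signal for 2 of these 3 and trachea for 1. The matching shares of all 5114 genes compared were 1.17% for lung and 2.25% for trachea. Whether the pathway counts differ from these shares was not tested. Cebpb, a C/EBP factor gene, read 1957 in lung and 503 in trachea, and the peroxisomal thioesterase gene Acot8 read 566 in lung and 167 in trachea. Cpt1a, which encodes the enzyme that admits long chains to mitochondria, read 1381 in lung and 3286 in trachea. The median log2 ratio over the 73 was -0.02, against -0.01 over all genes compared.

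The place of each gene within its array sets the 4 groups side by side, although the 2 ages were measured on array types with different probe sets. Scd1 stood at percentile 58.7 in E11.5 lung, 50.8 in E11.5 trachea, 64.4 to 75.3 in E18.5 bitransgenic lungs and 99.4 to 99.5 in E18.5 control lungs, by its brightest probe set. Scd2 stood at 99.0, 98.9, 99.7 to 99.8 and 99.9 in the same groups. These places follow the probe set. The other Scd1 probe set, 1415965_at, stood at 28.7 to 41.3 in bitransgenic lungs and 78.9 to 83.3 in controls, and Scd2 1415824_at stood at 69.5 to 72.5 in bitransgenic lungs and 79.5 to 83.4 in controls.

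**Figure D5:**
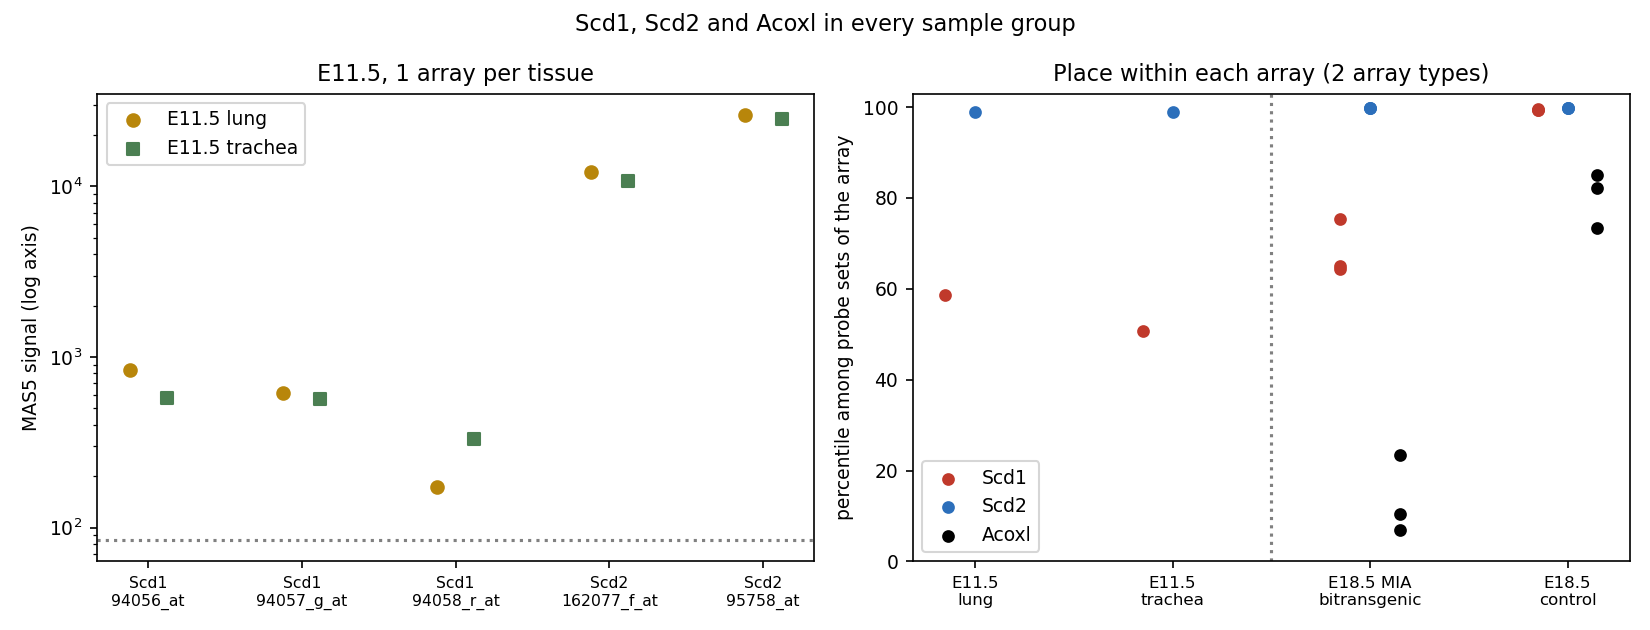
Left, MAS5 signal on a log axis of the Scd1 and Scd2 probe sets in E11.5 lung (circles) and trachea (squares), 1 array each, with the pseudocount of 84.3 dotted. Right, percentile of the brightest probe set of Scd1, Scd2 and Acoxl among all probe sets of each array, with the 2 array types split by the dotted line; Scd2 lies at or above 98.9 throughout and Scd1 runs from 50.8 in E11.5 trachea to 99.5 in an E18.5 control.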

How the data were processed

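Per the labels, RNA of 8 samples was biotin-labelled for Affymetrix arrays, and per the submitters' processing notes MAS5 made the values, with no version given. The deposited tables hold 1 linear signal intensity for every probe set on an array and no detection call. Affymetrix control probe sets were dropped, and probe sets with exactly 1 symbol were named from the array annotation, updated through gene IDs to GRCm38.p6 RefSeq. The probe set of highest mean log2 signal stood for a gene, which was kept if that mean reached the 40th percentile. Groups were compared across all genes with limma 3.58.1 in R 4.3.3 (lmFit, eBayes with intensity trend), two-sided, with Benjamini-Hochberg adjustment over 12625 genes and a threshold of 0.05. The fit was tested on simulated data. At E11.5 a gene counted as apart past 2-fold when its higher signal exceeded the table's median. Genes and lists were chosen with earlier results of these data known. Named were, in each list, the genes called or otherwise the 3 with the smallest p, the 5 nearest profiles and 3 neighbours on each side. Scd3, Elovl6, Cyb5r2, Srebf1, Acox2, Acox3, Gpam, Insig1 and the marker genes with values were named after these were seen. The alternatives for marker counts were added then too.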

Additional observations from a re-analysis of the deposited data

How the results depend on the processing

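Scd1, Scd2 and Acoxl kept their negative sign at E18.5 under every alternative tried for them. Leaving out 1 array in turn gave log2 changes of -5.21 to -4.79 for Scd1, -0.58 to -0.45 for Scd2 and -4.47 to -3.93 for Acoxl. Averaging over probe sets gave -4.05 for Scd1 and -0.81 for Scd2. Acoxl moved to -5.81 without a pseudocount, to -2.76 with one 4 times as large, to -4.68 with the Actb ratio as a covariate and to -4.74 without control 3 and bitransgenic 3, an alternative chosen after seeing the data. At E11.5 Scd1 had a log2 ratio of 0.37 with a pseudocount 4 times as large, and of -0.032, a turned sign, with the mean of its probe sets.

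The counts of genes called were less stable than the values. Leaving out 1 array gave 6 to 46 genes higher and 16 to 51 lower, against 30 and 55 with all arrays. They were 6 and 16 without control 2, 9 and 26 without bitransgenic 3, 12 and 28 without bitransgenic 1, 13 and 43 without bitransgenic 2 and 46 and 51 without control 3. The Actb covariate gave 4 and 16, array weights, whose fit stopped before it converged, 608 and 731, and the loss of control 3 and bitransgenic 3 together 71 and 116. With no filter 32 genes were lower, and with no intensity trend 36. Pathway genes called lower were 1 to 3 over the fits leaving out 1 array (3 without control 3), 18 with array weights and 6 without both arrays, and those called higher were 6 and 1 in the last pair of settings. No paired analysis was possible because the titles share no number between the groups.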
